A study of Trichechus manatus latirostris with 11 samples.

Results

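The EGR, NR4A and IER immediate early genes were examined in white blood cells of Florida manatees (Trichechus manatus latirostris), together with BTG2. The rule named 10 genes, which were EGR1, EGR2, EGR3, NR4A1, NR4A2, NR4A3, IER2, IER3, IER5 and BTG2. A member was taken from the deposited table where a row carried a transcript record that RefSeq assigns to that symbol in the TriManLat1.0 assembly. This gave 6 genes, with 1 row each, of the 15298 rows of the table. For EGR2, NR4A3, IER2 and IER5 no row was matched, and they were not analysed here. The rule used gene names and no measured value, but it was written with earlier results of these data known.

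RNA was taken from buffy coats, the white cell layer of centrifuged blood, of adult manatees, and was sequenced after depletion of ribosomal and globin RNA. The red tide group comprised 4 manatees brought in for treatment of red tide illness at the Lowry Park Zoo (ZooTampa). Of these, 2 were sampled on arrival and 2 after 1 week of treatment. The control group comprised 7 manatees, of which 4 were sampled in Crystal River, 2 in the Indian River Lagoon (Brevard County) and 1, recovering from pneumonia, at the same zoo. The question was which genes differed in level between animals rescued from the red tide area and animals from elsewhere. Blood of both groups was drawn into lithium-heparin tubes. The sample labels give frozen storage of the buffy coats in RNAlater, and the study's methods also describe immediate freezing, at a lower temperature, for the red tide samples. The study lists 1 female in each group and the lowest RNA integrity in 1 control. Serum amyloid A, a marker of inflammation, was high in 1 control and was not available for the red tide animals. The groups also differed in place and date of sampling and, for most animals, in clinical care, and these differences cannot be told apart from exposure.

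The deposited table holds means over libraries and no column of a single animal. In all 15298 rows the overall mean was the mean of the first group weighted by 4 and the second weighted by 7. The first mean therefore averages 4 libraries, as many as there were red tide animals, and the second 7 libraries, as many as there were controls. The columns do not name their groups. The direction words of the study for this comparison take the assignment the other way round, with the second mean as that of the red tide group. Which mean belongs to the red tide animals is therefore not settled here, no direction in red tide is drawn from any value, and the means are called the 4-library mean and the 7-library mean throughout. Values are normalized counts, that is, reads divided by the size factor of the library. Size factors, which stand for relative depth because total reads per library cannot be had from means, were 0.372 to 1.56 among the 4 libraries and 0.702 to 1.73 among the 7. Of 7 general leukocyte genes fixed as a tissue check, 5 had a row. In the 4-library and 7-library groups the means were 3572 and 3481 for ITGB2, 2180 and 2108 for CD53, 7673 and 4508 for LAPTM5, 28.4 and 45.1 for CORO1A, and 41.3 and 119 for SPI1. SPI1, the factor PU.1 of myeloid and B cells, was the one of these 5 that passed 2-fold, with the higher mean in the 7 libraries.

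Immediate early genes are transcribed as soon as a signal reaches the nucleus, without new protein synthesis, because the factors that switch them on, such as SRF with its ELK partners and CREB, are already present and are activated by phosphorylation. Their products are mostly transcription factors and regulators of mRNA stability or survival, and most of their transcripts are short-lived. EGR proteins are zinc finger factors that bind GC-rich promoter elements, NR4A proteins are nuclear receptors that act without a known natural ligand, IER3 modulates apoptosis, and BTG2 restrains proliferation. In leukocytes these genes respond to antigen receptors, pattern recognition receptors, cytokines and cell stress.

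All 6 genes had a higher 4-library than 7-library mean, as had 56.4% of all rows. In 5 of the 6, all except IER3, the 4-library mean was at least 2 times the 7-library mean, and in the same 5 it was at least 4 times as high. Among all rows, 23.9% passed the 2-fold limit in that direction and 12% passed the 4-fold limit. Both shares were lower among rows of high mean, so they are not a like background for every member. All 6 passed a limit of 1.5-fold, as did 33.8% of all rows. The median log2 ratio (4-library mean divided by 7-library mean) was 2.98 for the 6 genes and 0.14 for all 15298 rows. The ratios of the 6 genes spanned 1.79-fold for IER3 to 12.3-fold for NR4A2. Since the deposited means carry no spread, ratios of EGR1, NR4A2 and BTG2 were not tested. In bulk RNA a higher mean can reflect more cells of a type or more RNA per cell, and these cannot be told apart.

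**Figure D1:**
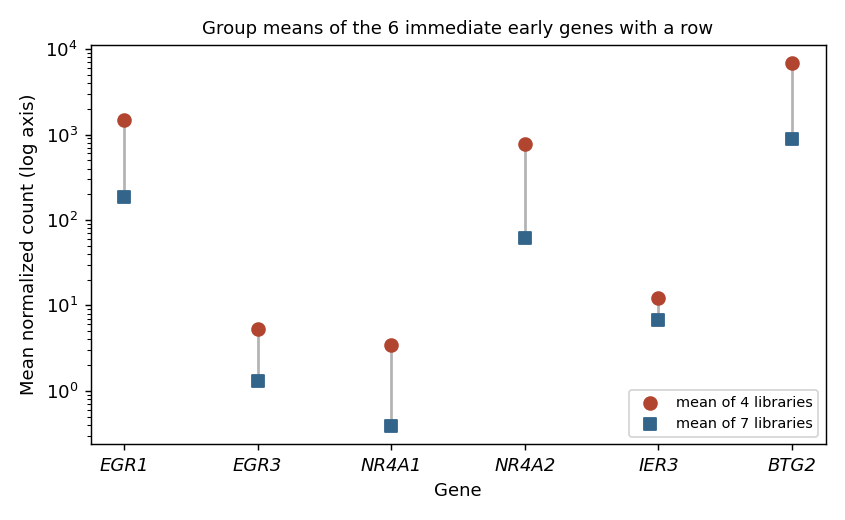
Mean normalized count (log axis) of each of the 6 genes in the 4-library group (circles) and the 7-library group (squares), with a grey line joining both means of a gene. The circle lies above the square for every gene, with the widest gap for NR4A2 (768 and 62.3) and the narrowest for IER3 (12.2 and 6.83), and no spread over libraries is drawn because the table holds means.

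Strongly counted members were read against rows of high mean, because low means give wide ratios, and weakly counted members against all rows. Rows with an overall mean of at least 100 numbered 5238. Of these, 8.76% passed the 2-fold limit with a higher 4-library mean, and 1.66% passed the 4-fold limit. Of the rows with an overall mean of at least 10, 12.3% passed the 2-fold limit in this direction. Over all rows this share was 23.9%, so it was higher still in rows with an overall mean under 10. No share was computed for those rows alone, to which EGR3, NR4A1 and IER3 belong. The share of 23.9% is therefore too low a background for these weakly counted members, and their ratios are not shown to be unusual. EGR1, NR4A2 and BTG2 had overall means of at least 100, and all 3 passed both limits. EGR3, NR4A1 and IER3 had overall means of 2.79, 1.49 and 8.78. They rest on few reads, but for that reason the whole reads of single libraries could be recovered from their means, for EGR3 and NR4A1 in all 11 libraries and for IER3 in the 4 libraries. Which animal a library came from is not known. Levels were not compared between genes, since the counts are not per transcript length.

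EGR1 (XM_004381045.1) encodes the zinc finger factor that links growth factor and antigen receptor signals to new transcription. Its mean was 1471 normalized counts over the 4 libraries and 188 over the 7 libraries. The 4-library mean was thus 7.84 times the 7-library mean, a log2 ratio of 2.97. A higher ratio was found in 6.94% of all rows, and in 30 of the 5238 rows with an overall mean of at least 100. Both means were too high for the reads of single libraries to be recovered, so it is not known whether all 4 libraries were high or 1 library carried the difference.

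EGR3 (XM_004382125.1), an EGR1 relative induced by T cell receptor signals, was counted far more weakly. In the 4 libraries, listed from the highest to the lowest size factor, its normalized counts were 5.13, 2.92, 8.06 and 5.38, from 8, 3, 5 and 2 reads. In the 7 libraries they ran from 0 to 5.70 with a median of 0. Reads of EGR3 were thus found in each of the 4 libraries but in only 3 of the 7, where 2 of those libraries held 4 reads each and the third held 1 read. The groups overlapped, since 1 of the 4 libraries exceeded the highest of the 7. The means were 5.37 ± 2.11 (SD, n = 4) and 1.32 ± 2.16 (SD, n = 7), a ratio of 4.08.

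For EGR3 an exact two-sided permutation test of the 4 libraries against the 7 gave p = 0.0364 for the difference of 4.06 normalized counts, with all of the 4 libraries above the 7-library mean. After Benjamini-Hochberg adjustment over the 4752 rows with reads of all 11 libraries the exact permutation p was 0.323, which did not pass. Of those 4752 rows, 14.2% had an exact permutation p under 0.05 with a higher 4-library mean, and in 2.76% all 4 libraries exceeded all 7. Reads were sought up to a mean of 100 in the 4 libraries but 8 in the 7, which favours rows with a higher 4-library mean. With this test no row passed after adjustment (0 of 4752), while 713 rows (15.0%) had an unadjusted p under 0.05. With 1 library left out, the exact p lay between 0.00952 and 0.1, and it was at or above 0.05 in 9 of the 11 cases. The library of the 7 with size factor 0.702 moved the ratio most, from 4.08 to 9.16 when it was left out. The 9 reads in the 7 libraries allow a ratio of 2.15 to 8.92 (95% Poisson interval), which covers counting error of those reads only.

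NR4A1 (XM_004388354.1), also called NUR77, encodes a nuclear receptor that follows the strength of antigen receptor signals in lymphocytes. In the same order of the 4 libraries, its normalized counts were 8.34, 0, 0 and 5.38, from 13, 0, 0 and 2 reads. In the 7 libraries they ran from 0 to 1.81 with a median of 0, and 5 of the 7 held no read. The 4 libraries were thus divided, with 2 above every one of the 7 and 2 at no read. A library without a read allows up to 3 reads, which is 2.92 and 4.84 normalized counts in those libraries.

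The NR4A1 means were 3.43 ± 4.14 (SD, n = 4) and 0.388 ± 0.712 (SD, n = 7), a ratio of 8.85. For the difference of 3.04 normalized counts the exact two-sided permutation test gave p = 0.218 and an adjusted p of 0.516, which did not pass. With 18 reads in all, this does not show that the groups were alike. With the 4-library mean held fixed, the 3 reads in the 7 libraries allow a ratio of 3.03 to 42.9 (95% Poisson interval). This covers counting error of those 3 reads only and not the spread among the 4 libraries. Without the library of size factor 1.56, which held 13 of the 15 reads, the ratio was 4.63, and without the library of the 7 with size factor 1.10, which held 2 of 3 reads, it was 22.8. RefSeq lists 3 transcript records for NR4A1, and the table as analysed here has a row for 1 of them.

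NR4A2 (XM_004375396.1), also called NURR1, is a nuclear receptor of the same family. It had means of 768 normalized counts over the 4 libraries and 62.3 over the 7 libraries. Its ratio of 12.3, or 3.62 on the log2 scale, was the highest among the 6 genes. Only 16 of the 5238 rows with an overall mean of at least 100 had a higher one. Here 1 of 4 RefSeq records had a row. How reads shared between records of a gene were counted is not given in the sources used here, so the levels of NR4A1 and NR4A2 may be incomplete. Both NR4A genes had higher 4-library means, but the spread over libraries is known for NR4A1 alone.

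IER3 (XM_004390383.1), also called IEX-1, encodes a stress-inducible regulator of apoptosis and NF-kB signalling. Listed as before, its normalized counts in the 4 libraries were 7.06, 6.82, 16.1 and 18.8, from 11, 7, 10 and 7 reads. Both libraries of lower size factor were about as high as each other and above both libraries of higher size factor. The 4-library mean was 12.2 ± 6.19 (SD, n = 4) and the 7-library mean was 6.83, with 3 of the 4 libraries above the latter. The ratio of 1.79 was below the 2-fold limit and was exceeded in 27.1% of all rows.

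The reads of IER3 in the 7 libraries could not be recovered, because 3 combinations of whole reads gave the same mean. Under these 3 combinations the exact two-sided permutation test gave p = 0.127 to 0.37. The highest of the 7 libraries lay between 11.8 and 27.7 normalized counts, and in each combination the library of size factor 1.11 held 0 or 1 read. The groups overlapped in every case. When the 4 libraries were left out one at a time, the ratio of IER3 lay between 1.46 and 2.05, on both sides of the 2-fold limit.

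**Figure D2:**
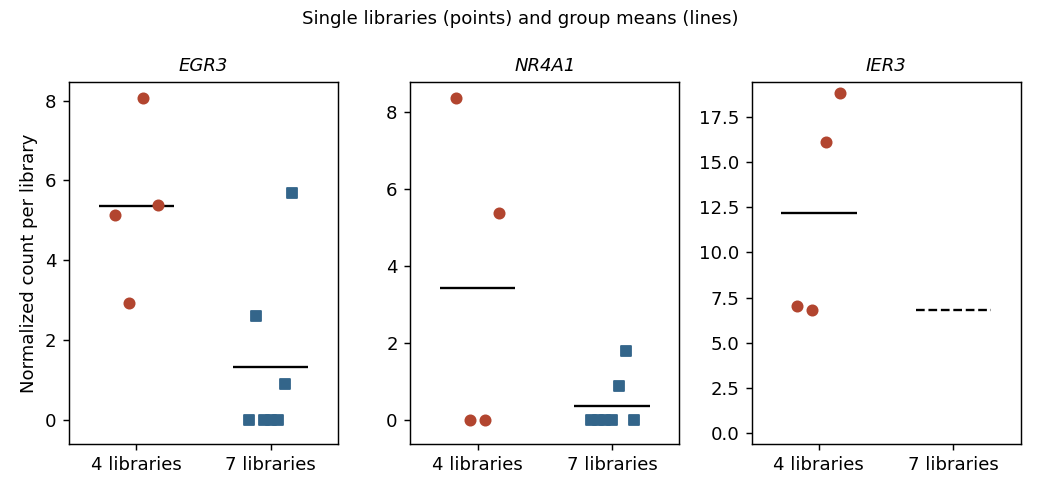
Normalized counts of EGR3, NR4A1 and IER3 in single libraries (points) of the 4-library and the 7-library group, with the group mean as a line, dashed where the single libraries are not known. EGR3 has reads in all 4 libraries but in only 3 of 7, NR4A1 has reads in 2 of 4 and 2 of 7, and IER3 in the 4 libraries spans 6.82 to 18.8.

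The libraries that were highest differed from gene to gene. Among the 4 libraries, EGR3 was highest in the library of size factor 0.620, NR4A1 in that of 1.56 and IER3 in that of 0.372. No single library of the 4 had the highest value for all 3 genes. These orders rest on few reads, and 1 read is worth 2.69 normalized counts in the library of size factor 0.372. Whether they exceed counting error was not tested. The library of size factor 1.03 was the lowest for EGR3 and IER3 and held no read of NR4A1. Among the 7 libraries, EGR3 was highest in the library of size factor 0.702, which held no read of NR4A1.

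BTG2 (XM_004375266.1), a target of p53 that recruits the CCR4-NOT deadenylase to mRNAs, had means of 6909 normalized counts over the 4 libraries and 875 over the 7 libraries. The ratio was 7.90, or 2.98 on the log2 scale, and 29 of the 5238 rows with an overall mean of at least 100 had a higher one. EGR1 and BTG2 thus had nearly the same ratio. As for EGR1, the reads of single libraries could not be recovered.

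The closest relatives of these genes and the EGR corepressors did not pass the 2-fold limit. Of 10 such genes, 7 had a row, 3 of them with a higher 4-library mean, and their median log2 ratio was -0.01. BTG1, which shares the BTG domain with BTG2, had means of 19755 over the 4 libraries and 11784 over the 7 libraries, and BTG3 had means of 219 and 174. TOB2, another protein of that superfamily, had means of 38.1 and 48.1. TOB1 rested on 2 reads in the 4 libraries and 11 in the 7 (exact permutation p = 0.636, adjusted 0.896), with means of 0.833 and 1.34. The log2 ratio was 0.60 for NAB1 and -0.29 for NAB2, both of which bind EGR factors and repress their targets. NAB2 is itself induced by EGR factors, and its means were 91.9 and 112. IER3IP1, which is named for its interaction with IER3 but works in the secretory pathway, had means of 128 and 129. EGR4, IER5L and BTG4 had no matched row.

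The factors and kinases that act upstream of immediate early genes were represented by 33 rows of 27 genes. In 4 rows the 4-library mean was at least 2 times the 7-library mean and in 7 rows the 7-library mean was at least 2 times the 4-library mean, where the shares over all rows were 23.9% and 10.4%. Their median log2 ratio was -0.19. Among rows with an overall mean of at least 10, the highest ratios were those of CREM (XM_004387863.1), with means of 84.5 over the 4 libraries and 10.1 over the 7, and MAPK3, with 15.3 and 7.97. CREM belongs to the CREB family and also gives rise to an inducible repressor of cAMP-driven transcription. The lowest was that of MRTFA, an SRF coactivator, with means of 22.0 and 84.6. SRF had means of 139 and 108.

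Of 11 genes whose products bind members or act with them, 9 had a row, 10 rows in all, and the median log2 ratio was 0.18. PPP2CA, the catalytic subunit of protein phosphatase 2A, was the one that passed the 2-fold limit, with means of 8224 over the 4 libraries and 2760.2 over the 7. CNOT7 and CNOT8, the deadenylase subunits that BTG2 contacts, had log2 ratios of 0.61 and -0.79. RXRB, a heterodimer partner of NR4A receptors, had a log2 ratio of -0.37.

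Other immediate early genes outside the 3 families were represented by 21 of 26 genes. In all 21 the 4-library mean was the higher one, and in 18 of them by at least 2-fold. Among all rows these shares were 56.4% and 23.9%. Their median log2 ratio was 2.22, beside 2.98 for the 6 members. The lowest ratios with an overall mean of at least 10 were those of KLF2, a factor of resting lymphocytes (1.06-fold), and DUSP1, a MAP kinase phosphatase (1.77-fold). The highest were those of RGS1, a regulator of G protein signalling (26.6-fold), and TNFAIP3, an NF-kB inhibitor (15.2-fold).

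**Figure D3:**
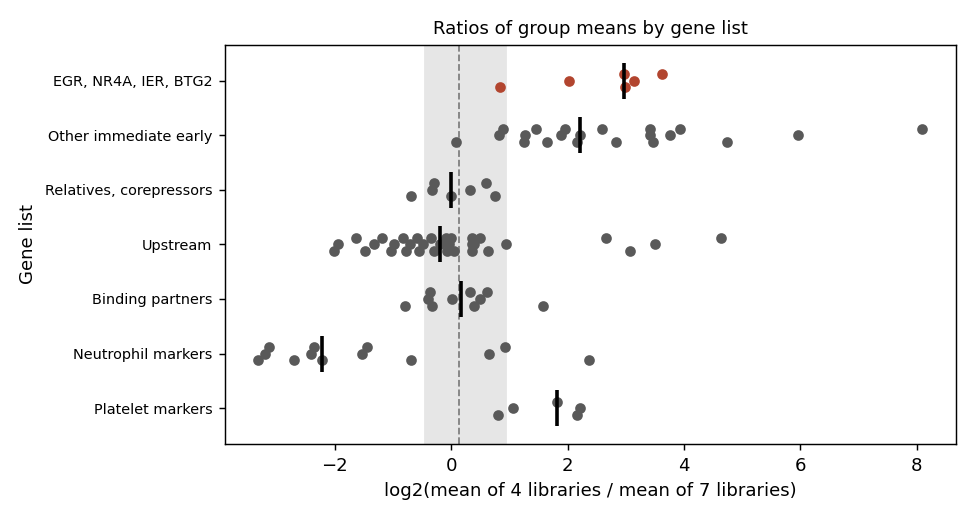
The log2 ratio (4-library mean divided by 7-library mean) for each row of 7 gene lists (points), with the list median as a black bar. The grey band is the middle of all 15298 rows from the lower quartile (-0.44) to the upper quartile (0.94), and the dashed line is their median (0.14). The medians of the EGR, NR4A, IER and BTG2 genes (2.98) and of other immediate early genes (2.22) lie to the right of the band, while those of the relatives, upstream genes and binding partners lie within it.

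Markers of blood cell types differed between the same means, for which the red tide group is not settled. Of 18 neutrophil markers 13 had a row, and 9 of these had a 7-library mean at least 2 times the 4-library mean. In the other direction, 3 of the 13 (FPR1, MPO and AZU1) had a higher 4-library mean, and 1 of them, the weakly counted AZU1, passed 2-fold. The summed mean of the neutrophil markers was 6038 in the 4 libraries and 18222 in the 7 libraries. Of 10 platelet markers 5 had a row, and 4 of these had a 4-library mean at least 2 times as high, with summed means of 15250.0 and 4419.5. Over all rows, 10.4% had a 7-library mean at least 2 times as high and 23.9% a 4-library mean at least 2 times as high. The median log2 ratio was -2.23 for the neutrophil and 1.82 for the platelet markers. Monocyte, T cell, B cell, NK cell and erythroid markers had medians between -0.44 and 0.31, over 3 to 8 rows each. Neither mean was 0 in any row of the table, so a marker at 0 in a group could not have been seen. Markers without a row were not assessed. The part of cell composition in the ratios of the 6 genes was not tested.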

How the data were processed

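Libraries came from buffy coats of 11 manatees, 4 in the red tide group and 7 controls, as the sample titles give them. Per the methods, the authors trimmed by quality with Cutadapt, aligned with Bowtie2 to TriManLat1.0, discarded duplicates and multiply mapped reads, and counted the rest by gene sequence before running DESeq in DEB. Their annotation release, counting program and strand setting were not given in the sources used here. Each deposited signal value is a mean, made by the authors, of size-factor-normalized counts. The columns of the authors' comparison (fold change, its log2 value, p-value and adjusted p-value) were not used, and 0 columns of single samples were left unused. Ratios of the means were taken without a test.

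Records were matched to RefSeq genes without their version number, which gave a symbol to 10080 rows (65.9%). The worth of 1 read in each library was read from the lowest means and refined by least squares. Whole reads were then searched for 4-library means of up to 100 and 7-library means of up to 8, and kept where 1 combination gave the written mean, which held for both means in 4752 rows. These limits favour rows with a higher 4-library mean. The recovery and the exact permutation test, whose smallest p here is 0.00606, were tested on simulated data. The simulated reads used the fitted worth of 1 read in each library, so they do not check that worth. For the permutation test the simulated spread was set and not taken from these data. Poisson intervals vary the reads of the 7 libraries and hold the 4-library mean fixed. These intervals and the limit of 3 reads for a count of 0 cover counting error only.

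Named were all members and relatives and, of the other lists, the 2 highest and 2 lowest ratios at an overall mean of at least 10, of which 1 is not reported here. SRF was chosen after its values had been seen, and all leukocyte genes with a row are given. The members and lists were chosen with earlier results of these data known. Alternatives concerned fold limits, centring, a pseudocount of 1, low means, the scale of the permutation test and single libraries. Python 3.11.15, numpy 2.4.6, pandas 2.3.3, scipy 1.17.1, numba 0.67.0 and matplotlib 3.10.9 were used.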

Additional observations from a re-analysis of the deposited data

How the results depend on the processing

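The number of members with a 4-library mean at least 2 times the 7-library mean was 5 at fold limits of 2 and 4, after centring on the median of all rows and with a pseudocount of 1, and 6 at a limit of 1.5. It was 3 with rows of an overall mean of at least 10 alone, because this leaves EGR1, NR4A2 and BTG2 to be counted. The median log2 ratio was 2.98, and 2.32 with a pseudocount of 1, which lowers the ratios of weakly counted genes (NR4A1 from 3.15 to 1.67, EGR3 from 2.03 to 1.46). No log2 ratio of a member turned its direction under any of these settings or with 1 library left out where libraries were known. With 1 library left out, the exact permutation p ranged from 0.00952 to 0.1 for EGR3 and from 0.133 to 0.6 for NR4A1. No paired analysis was possible because the table holds group means and no column of a single sample. EGR1, NR4A2 and BTG2 could not be recomputed without single libraries, so whether their ratios depend on 1 library is not known. At the depth of these libraries, EGR3 and NR4A1 rest on 27 and 18 reads in all.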

Other observations

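Of the other immediate early genes, ATF3, ARC, CCN1 and FOSL1 had reads recovered in all 11 libraries, which is the same kind of measurement as for EGR3 and NR4A1. Reads of the 7 libraries were sought only up to a mean of 8, a lower limit than for the 4 libraries. These 4 genes were thus selected for a low 7-library mean, and their p-values do not stand for the whole list. FOSB, KLF4 and ZFP36, with 7-library means of 8.67, 13.1 and 21.3, were not tested. Their ratios of 6.02, 3.71 and 2.40 were below those of the 4 tested genes. ATF3, a stress-induced factor of the ATF family, ran from 21.4 to 96.8 normalized counts in the 4 libraries and from 0 to 11.1 in the 7. For ATF3 all 4 libraries exceeded all 7 (exact two-sided permutation p = 0.00606, the smallest possible, and 0.21 after adjustment over 4752 rows). ARC, best known as a neuronal activity gene, ran from 3.22 to 21.5 and from 0 to 5.97 (exact permutation p = 0.0121, adjusted 0.262). CCN1, a matricellular protein, and FOSL1, a partner of JUN proteins, each had 1 read in the 7 libraries together, beside 57 and 12 reads in the 4 (exact permutation p = 0.0121 and 0.0485, adjusted 0.262 and 0.323). Which of the groups is the red tide group is not settled for these genes either. In this group of 4 genes, as for EGR3 and NR4A1, no adjusted p passed, and 2.76% of the 4752 rows had all 4 libraries above all 7.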
